A study of Mus musculus with 12 samples.

Results

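The matrilins, thrombospondins, periostin and tenascin C are secreted proteins of the extracellular matrix, and the messenger RNAs of 10 of them were followed in embryonic mouse hearts with and without *Hira* in the cardiogenic mesoderm. The 10 genes, *Postn*, *Tnc*, *Thbs1*, *Thbs2*, *Thbs3*, *Thbs4*, *Comp*, *Matn2*, *Matn3* and *Matn4*, were picked by name out of 20368 genes in the deposited table. They were chosen with the mutant and control levels of these same libraries already known. Their differences between mutant and control hearts are therefore given as a description, with fold changes and SEs but without p-values or calls on the 10 genes. The change from E11.5 to E12.5 within a genotype was tested. Whether that change was also looked at in the choice is not recorded, so its p-values are not those of genes picked without sight of these libraries.

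RNA was sequenced from hearts of the CD1 strain at E11.5 and E12.5, in 4 groups of 3 libraries. Control hearts were *Mesp1Cre*;*Hira*+/fl, with 1 wild type and 1 floxed allele of the histone chaperone gene *Hira*. Mutant hearts were *Mesp1Cre*;*Hira*-/fl, with 1 null and 1 floxed allele. Both genotypes carried the Cre, so the floxed allele was open to recombination in the controls as well. *Mesp1Cre* acts in early cardiac progenitors of the mesoderm. The paper holds it likely that HIRA protein left in mutant hearts comes from cells of other origin, such as neural crest and circulating cells. Recombination by cell type was not measured here. The sources used here do not say whether a library is 1 heart or a pool, nor whether the 3 libraries of a group come from separate litters, so the p-values measure the spread between these libraries.

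Matricellular proteins such as thrombospondins, periostin and tenascin C sit in the matrix without being its main scaffold, and act on cells through integrins, CD36, CD47 and growth factors that they bind. In the developing heart, periostin is known as a product of cushion mesenchyme and later of fibroblasts and valve cells. Tenascin C is known for short bursts of expression at sites of tissue remodelling and cell migration. Matrilins are adaptor proteins that link collagen fibres and proteoglycans, best known from cartilage, and *Comp* encodes the thrombospondin of cartilage and tendon.

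Counts on genes totalled 11994148 to 17483982 per library. *Hira* counts per gene, which do not resolve the deleted part, were 77.8 ± 8.66 (in CPM, counts scaled to library size; mean ± SD, n = 3) in control and 64.9 ± 8.99 in mutant hearts at E11.5, and 74.9 ± 12.8 and 74.4 ± 5.29 at E12.5, so they do not check the labels. Of the 8 cardiomyocyte markers, the summed level was 19400 to 26800 CPM in every library, which fits the heart label. The E11.5 control 1, E11.5 mutant 1 and E12.5 mutant 1 libraries stood apart in liver genes, with 24.6, 55.8 and 50 CPM summed over 6 markers against 0.665 to 14.2 in the other 9 libraries. At E11.5 most of this was *Afp*, at up to 20.8 CPM in controls and 51 in mutants, while *Alb* did not exceed 0.454 CPM. In E12.5 mutants *Afp* reached 27.4 and *Alb* 18.7 CPM. Reads of Y-linked genes showed RNA of male embryos in all 3 E11.5 control libraries and in 1 of 3 libraries of each other group. In RNA from whole hearts, fewer cells of a type and less RNA per cell cannot be told apart.

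The sequence before the start is shown for 3 genes on which the results on stage and level turn: *Postn*, the most abundant of the 10, and *Thbs2* and *Tnc*, which changed with stage. Each sequence is the 250 bases before a RefSeq transcript start on GRCm38.p6, written 5′ to 3′ along the strand of the gene. *Postn* lies on the + strand with its window at chr3:54360857-54361106, *Tnc* on the - strand at chr4:64047016-64047265, and *Thbs2* on the - strand at chr17:14694263-14694512. Capitals mark the TATA box letters TATAAA, searched on both strands.
Postn: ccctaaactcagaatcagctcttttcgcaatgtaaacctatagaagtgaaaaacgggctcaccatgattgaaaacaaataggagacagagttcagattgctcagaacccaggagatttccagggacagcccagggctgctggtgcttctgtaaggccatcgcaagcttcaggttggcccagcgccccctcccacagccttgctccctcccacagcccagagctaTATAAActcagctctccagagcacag
Tnc: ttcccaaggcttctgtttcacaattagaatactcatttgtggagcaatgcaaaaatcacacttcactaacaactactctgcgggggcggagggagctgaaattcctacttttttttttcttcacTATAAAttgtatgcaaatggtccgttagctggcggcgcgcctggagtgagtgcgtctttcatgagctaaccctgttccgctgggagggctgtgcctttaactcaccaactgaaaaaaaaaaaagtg
Thbs2: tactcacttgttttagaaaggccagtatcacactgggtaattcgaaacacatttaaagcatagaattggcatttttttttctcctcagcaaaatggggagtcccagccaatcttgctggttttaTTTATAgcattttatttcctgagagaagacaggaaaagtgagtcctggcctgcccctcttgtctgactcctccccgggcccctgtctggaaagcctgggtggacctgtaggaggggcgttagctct
The match began 26 bases before the start in *Postn*, and 126 bases before it in both *Tnc* and *Thbs2*, where that of *Thbs2* was on the opposite strand. These letters were in 4063 of 32851 RefSeq windows of this length (12.4%), and in 4 of the 10 windows of the listed genes. Those 4 count the same *Tnc* match in overlapping windows. They belong to 3 of the 7 genes of the list that were found there. Those 7 were *Matn3*, *Matn4*, *Postn*, *Thbs2*, *Thbs3*, *Thbs4* and *Tnc*. A second window of *Tnc*, at chr4:64046937-64047186, held the same match 205 bases before its start, and a second *Postn* window at chr3:54359017-54359266 held none. Only the letters TATAAA were searched, so the letters tatataa near the end of that second *Tnc* window did not count as a match.

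*Postn*, which encodes periostin, was by far the most abundant of these messages per unit of length. In RPKM, computed here as CPM per kilobase of gene length, its mean was 138 over the 12 libraries, rank 601 of 12270 genes. In control hearts at E11.5 it reached 165 ± 26.1 RPKM (SD, n = 3), followed by *Thbs4* at 29.2 ± 6.05, *Tnc* at 24.9 ± 19.9 and *Thbs1* at 24.6 ± 3.37. The ranges of these 3 neighbours overlapped, while every *Postn* library lay above them. *Thbs3* followed at 10.1 ± 1.1 RPKM, and the lowest were *Matn2* (3.43), *Matn4* (2.0), *Thbs2* (1.39), *Comp* (1.07) and *Matn3* (0.475). Among these 5, only the neighbours *Comp* and *Matn3* did not overlap. *Matn1*, the cartilage matrilin left out of the list, had 0 to 5 reads per library and was not tested.

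By E12.5 the order of levels per length had changed in the middle. In control hearts *Tnc* had moved from rank 3 to rank 5 at 6.76 ± 1.80 RPKM, and *Thbs2* from rank 8 to rank 6 at 5.16 ± 0.932, with overlapping ranges. In mutant hearts *Thbs2* stood at rank 8 at E11.5 (0.726 ± 0.344 RPKM) and rank 5 at E12.5 (6.55 ± 2.14). *Postn* was first in all 4 groups without overlap. *Matn3* was last in both control groups and in E12.5 mutants, and *Matn4* was last in E11.5 mutants at 0.380 ± 0.187.

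**Figure D1:**
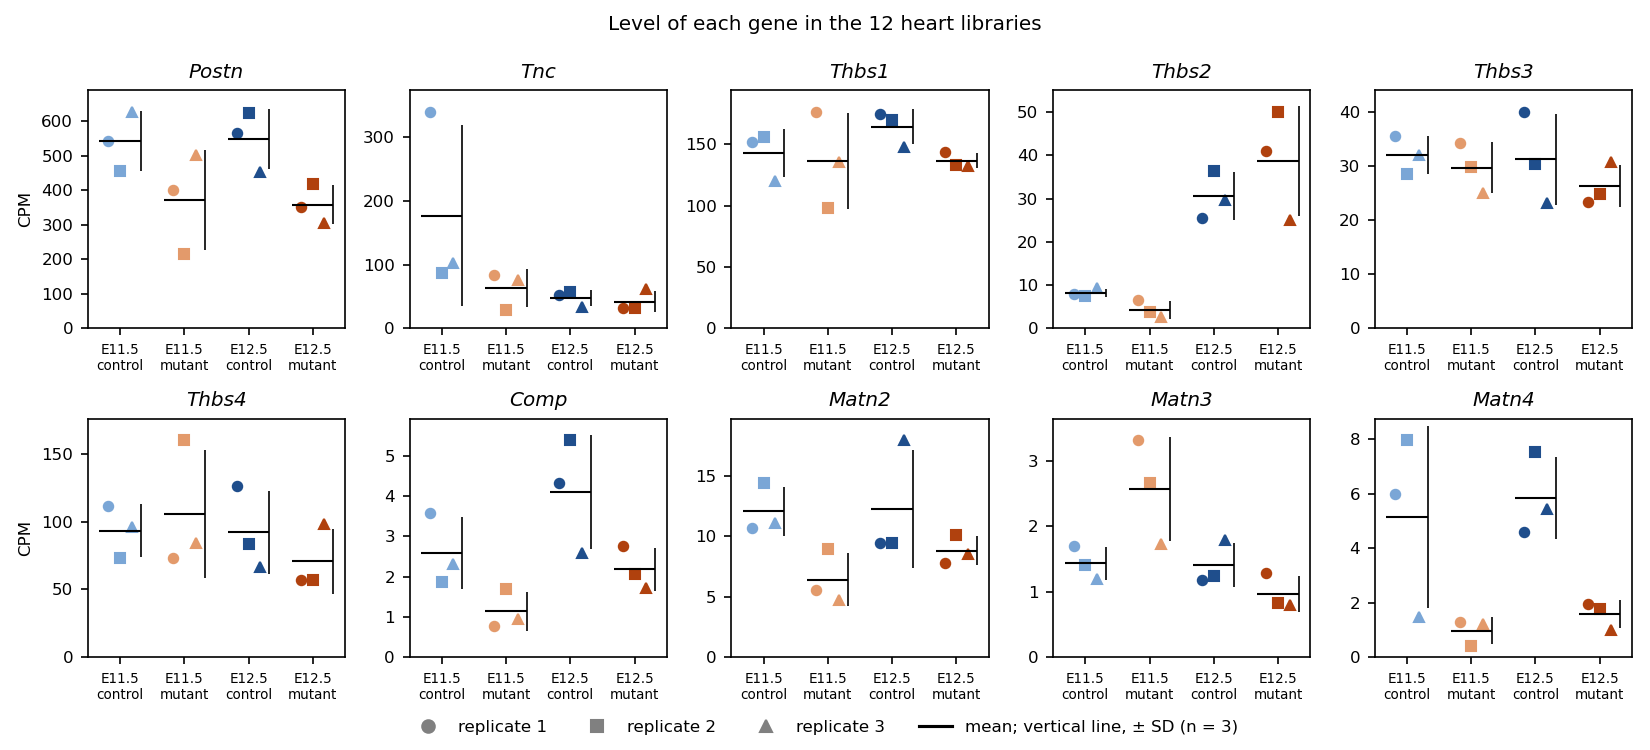
Level of each of the 10 genes in CPM (vertical axis, linear, each panel with its own scale) in the 3 libraries of each group, marked by replicate, with the mean as a horizontal line and ± SD as a vertical line. *Thbs2* was between 2.59 and 9.24 CPM in the 6 libraries at E11.5 and between 25.1 and 50.1 in the 6 at E12.5, and E11.5 control 1 stood at 340 CPM of *Tnc*.

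The change from E11.5 to E12.5 was compared within each genotype to see which of these genes are regulated over this day of heart development. *Thbs2* rose in control and in mutant hearts, *Tnc* fell in control hearts, and no other gene of the list passed the thresholds of edgeR's quasi-likelihood test (Benjamini-Hochberg adjusted p of at most 0.05 over all genes tested, and a fold change of at least 1.5). Over all genes, 647 of 12252 (5.28%) passed in control hearts and 68 of 12238 (0.556%) in mutant hearts. Of the 10 genes, 9 entered the test in each genotype, with *Matn3* below the limit of a mean of 0.5 RPKM in controls and *Matn4* below it in mutants. The median log2 fold change of the 9 was 0.02 in controls, beside 0.011 over all genes, and -0.07 in mutants, beside -0.0061. The stage comparisons share no library with each other, but each shares its libraries with the comparisons of genotype.

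*Thbs2* encodes thrombospondin 2, a regulator of collagen fibre assembly and an inhibitor of blood vessel growth. Its level in control hearts was 7.96, 7.57 and 9.24 CPM at E11.5 and 25.5, 36.5 and 29.8 at E12.5. In mutant hearts it was 6.55, 3.75 and 2.59 CPM at E11.5 and 41.1, 50.1 and 25.1 at E12.5. All 6 libraries at E12.5 lay above all 6 at E11.5. The log2 fold change was 1.89 (SE 0.16) in controls, 3.71-fold, with an adjusted p of 0.000988 (edgeR). The rise in controls passed with each of the 6 other settings and with any 1 library left out, between 1.74 and 2.01, including the fit with sex as a covariate (1.85, adjusted p = 0.00996, edgeR). In mutants it was 3.14 (SE 0.35), 8.84-fold, with an adjusted p of 0.0107 (edgeR). The mutant rise missed the threshold without E12.5 mutant 1 (3.10, adjusted p = 0.0571, edgeR) or without E12.5 mutant 2 (2.92, adjusted p = 0.0751, edgeR).

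*Tnc*, which encodes tenascin C, was at 340, 87.8 and 103 CPM in the E11.5 control libraries and at 52.9, 57.7 and 33.5 in those of E12.5. The 3 later libraries were lower than the 3 earlier ones, and E11.5 control 1 was 3.31 times the higher of the other two. The log2 fold change in controls was -1.88 (SE 0.45, adjusted p = 0.0322, edgeR). Without E11.5 control 1 it was -0.99 with an adjusted p of 0.0425 (edgeR). It missed the threshold in 1 fit over all 12 libraries (adjusted p = 0.0521, edgeR), without E11.5 control 3 (-2.16, adjusted p = 0.0520, edgeR), without any 1 of the 3 E12.5 controls (-2.04 to -1.68, adjusted p of 0.0588 to 0.136, edgeR), and with sex as a covariate (-2.40, adjusted p = 0.317, edgeR). In mutant hearts *Tnc* went from 84.3, 29.0 and 76.6 CPM to 31.8, 32.8 and 61.2, with overlap (-0.60 on the log2 scale, SE 0.39, adjusted p = 0.694, edgeR).

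The E11.5 control 1 library, high in *Tnc*, was over 3 times both other libraries of its group in 39 of 12270 genes, against 15 and 8 genes for the other two. Beside its 24.6 CPM of liver markers, mostly *Afp*, it had 76.2 CPM summed over 6 macrophage markers against 29.0 and 48.6. Its sums for cartilage (435 CPM), cushion mesenchyme (1200) and tendon markers (55.5) were the lowest of the 3. So were those for epicardium (646), endocardium and endothelium (984), smooth muscle (2450), cardiomyocytes (19700) and skeletal muscle (46.8). The neural crest and Schwann cell list was at 11.7 CPM, within the 10 to 19.3 of the others. The part of these differences in the *Tnc* level was not tested.

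The other thrombospondins did not pass in either genotype. *Thbs1*, an activator of latent TGF-beta and a ligand of CD36 and CD47, stood at 152, 156 and 120 CPM in E11.5 controls and 174, 170 and 148 in E12.5 controls (log2 fold change 0.20, SE 0.12, adjusted p = 0.267, edgeR). *Thbs4*, a thrombospondin of muscle and tendon, was at 112, 73.0 and 95.9 CPM and then 126, 83.7 and 66.8 (-0.02, SE 0.22). *Thbs3* was at 35.7, 28.7 and 32.2 CPM and then 40.1, 30.5 and 23.2 (-0.04, SE 0.18). For each of the 3 genes the stages overlapped. In mutants the log2 fold changes were -0.01 (SE 0.19) for *Thbs1*, -0.59 (SE 0.32) for *Thbs4* and -0.19 (SE 0.16) for *Thbs3*, all with overlap.

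*Comp*, with 11 to 96 reads per library, was at 3.59, 1.86 and 2.31 CPM in E11.5 controls and 4.34, 5.38 and 2.59 in E12.5 controls, which overlapped (log2 fold change 0.67, SE 0.34, and 0.00 with sex as a covariate). In mutants it went from 0.778, 1.69 and 0.951 CPM to 2.77, 2.06 and 1.72. The mutant groups did not overlap, but the change of 0.90 (SE 0.38) missed the threshold (adjusted p = 0.520, edgeR). In mutants *Comp* entered the test through its E12.5 level, since its mean at E11.5 was 0.470 RPKM. Per length, *Comp* made up 0.490% to 3.02% of the thrombospondin messages.

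The family was also described by its make-up per length. As a share of the summed RPKM of the 5 genes, *Thbs2* took 2.12% ± 0.339 (SD, n = 3) in E11.5 controls and 7.23% ± 2.03 in E12.5 controls. In mutants its share was 1.09% ± 0.524 at E11.5 and 10.9% ± 4.30 at E12.5. *Thbs4* and *Thbs1* together took the larger part in every library, with means of 43.8% and 37.3% in E11.5 controls and 38.4% and 38.9% in E12.5 controls. *Thbs3* kept a mean share between 13.2% and 15.2% in all groups. The sum itself was 60.7 to 75.0 RPKM in E11.5 controls, 58.2 to 77.6 in E11.5 mutants, 59.7 to 88.2 in E12.5 controls and 57.8 to 68.1 in E12.5 mutants, which all overlapped.

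**Figure D2:**
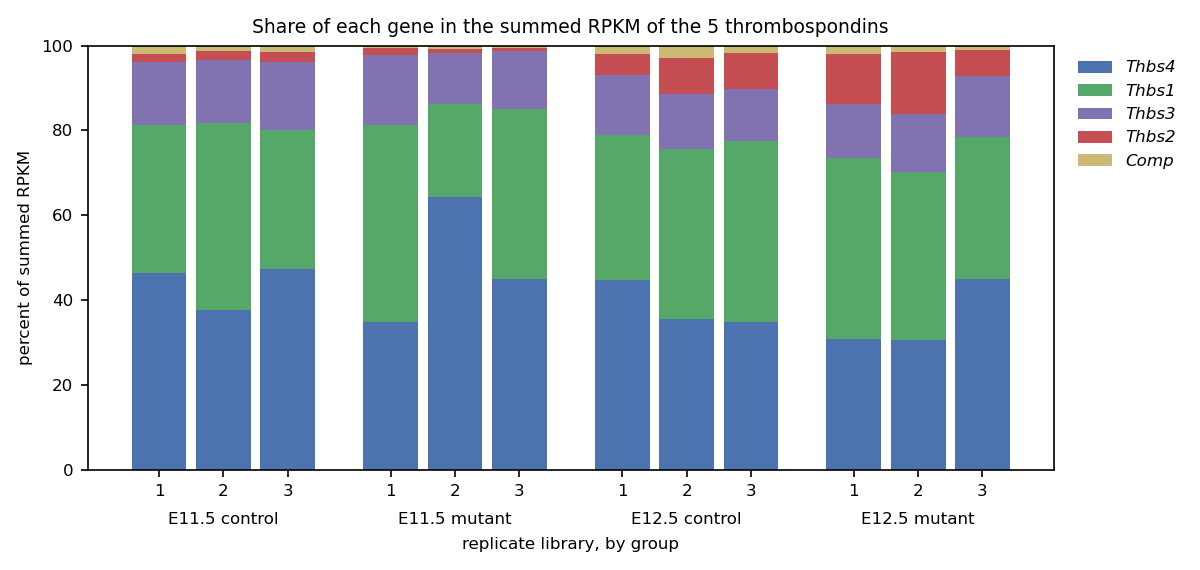
Share of each thrombospondin gene in the summed RPKM of the 5 genes (vertical axis, percent) in each of the 12 libraries, grouped by stage and genotype. The *Thbs2* share was 0.753% to 2.47% in the libraries at E11.5 and 4.88% to 14.6% in those at E12.5.

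*Postn* did not pass in either genotype. Its level in control hearts was 544, 456 and 628 CPM at E11.5 and 566, 624 and 454 at E12.5, which gave 0.01 on the log2 scale (SE 0.14, adjusted p = 0.962, edgeR). In mutant hearts it was 403, 217 and 502 CPM and then 353, 418 and 306, a change of -0.07 (SE 0.27, adjusted p = 0.942, edgeR). The ranges of the stages overlapped in both genotypes, and the sign of the small control change turned with sex as a covariate (-0.26).

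Among the matrilins, *Matn2*, the most widely expressed of the family, was at 10.7, 14.4 and 11.1 CPM in E11.5 controls and 9.47, 9.42 and 17.9 in E12.5 controls (log2 fold change 0.02, SE 0.25). In mutants it went from 5.58, 8.95 and 4.76 CPM to 7.84, 10.1 and 8.52 (0.44, SE 0.25, adjusted p = 0.651, edgeR). *Matn4* was at 6.0, 7.95 and 1.47 CPM and then 4.60, 7.51 and 5.43 in controls (0.18, SE 0.45), where E11.5 control 3, with 21 reads, was the low one. All of these groups overlapped. *Matn3*, a matrilin of growth plate cartilage, was at 3.31, 2.66 and 1.73 CPM in E11.5 mutants and 1.28, 0.823 and 0.792 in E12.5 mutants. The later libraries were lower without overlap, and the change of -1.43 (SE 0.37) did not pass (adjusted p = 0.205, edgeR). *Matn3* entered this fit through its E11.5 mutant level, and counts were 12 to 51 per library.

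Groups that did not overlap between stages were 2 of the 9 genes in controls (*Thbs2*, *Tnc*), where 37.4% of all genes tested did not overlap. In mutants they were 3 of 9 (*Thbs2* and *Comp* higher, *Matn3* lower), beside 17.4% of all genes, and *Comp* and *Matn3* were in that test through the stage at which they were high. With 3 libraries against 3, an exact permutation test of a single gene could not go below a two-sided p of 0.10.

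Marker lists of other cell types moved with stage beside these genes. In control hearts the macrophage list summed to 29.0 to 76.2 CPM at E11.5 and 79.4 to 104 at E12.5, endocardium and endothelium to 984 to 1210 and 1230 to 1270, and skeletal muscle to 46.8 to 74.5 and 78 to 99.4. The skeletal muscle sum was higher through *Ckm*, a creatine kinase that heart muscle also makes (means of 18.3 and 66.6 CPM), while the fast muscle light chain *Mylpf* was lower (30.9 and 12.1). The epicardium list went from 646 to 922 down to 409 to 602 CPM, smooth muscle from 2450 to 2970 down to 1600 to 2150, and cartilage from 435 to 558 down to 311 to 373. The smooth muscle fall lay mostly in *Acta2* (means of 1750 and 1310 CPM) and *Tagln* (471 and 208). *Smtn* was higher (97 and 125), and *Myh11*, which defines the cell type, was at 2.11 and 2.19. In mutant hearts the macrophage list went from 13.7 to 16.8 up to 40.9 to 57.8 CPM and the tendon list from 27.5 to 35.1 up to 45.8 to 50.6. Within the tendon list the difference lay in *Egr1*, an immediate early gene (means of 13.4 and 28.5 CPM), while *Fmod* was at 13.3 and 13.8 and the tendon factor *Scx* at 5.08 and 5.80. Erythroid markers there went from 4400 to 5520 down to 2080 to 2630 CPM, smooth muscle from 2890 to 3470 down to 2230 to 2630, and cartilage from 269 to 496 down to 188 to 258. The smooth muscle fall in mutants also lay mostly in *Acta2* (means of 2170 and 1740 CPM) and *Tagln* (427 and 230). Means of *Smtn* (92.9 and 107) and *Myh11* (1.12 and 2.23) were higher at E12.5. The cartilage fall lay mostly in *Col2a1*, with means of 275 and 192 CPM in controls and 238 and 107 in mutants. *Sox9*, *Col9a1* and *Col9a3* also had lower means at E12.5 in both genotypes. *Col9a2* (34.3 and 35 in controls, 24.9 and 26.1 in mutants) and *Col11a2* (5.16 and 6.93, 6.62 and 9.79) did not. Means of *Acan* were 0.754 to 1.02 CPM. The part of these lists in the changes of *Thbs2* and *Tnc* was not tested.

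**Figure D3:**
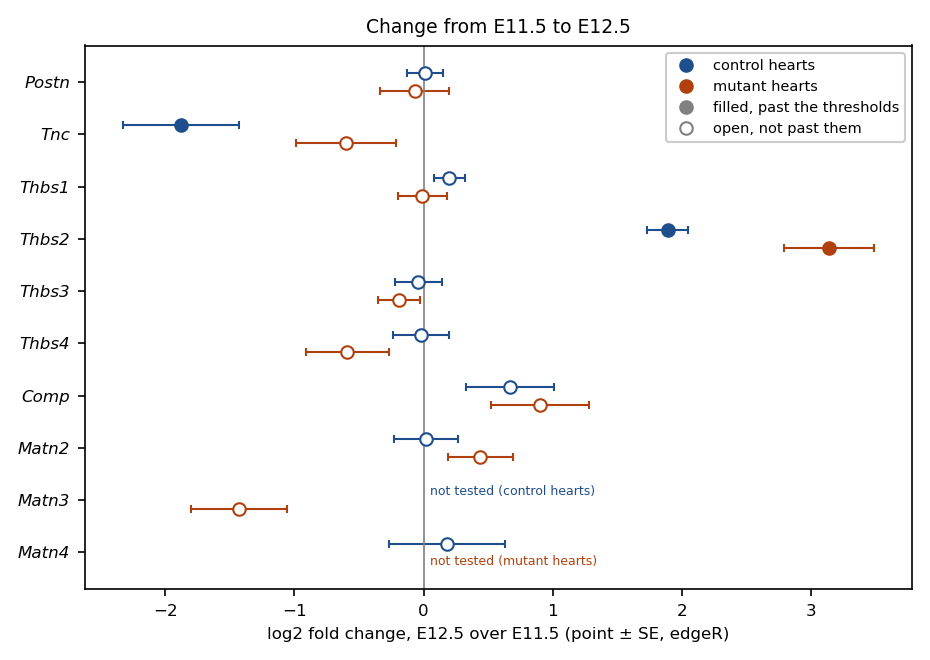
Log2 fold change from E11.5 to E12.5 with its SE (horizontal axis, edgeR) for each gene in control and in mutant hearts, filled where the gene passed the thresholds of adjusted p and fold. *Thbs2* passed in both genotypes at 1.89 and 3.14 and *Tnc* in controls at -1.88, while *Postn* and *Thbs1* lay within 0.20 of 0 in both.

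A list of 55 genes of the same biology, set by function with earlier results of the series known, was counted in the same fits. It holds receptors and binding partners, other matricellular proteins, and matrix ligands with the enzymes that process them. In control hearts 7 of the 50 genes tested passed between stages (6 higher and 1 lower), beside the 5.28% of all genes, with a median log2 fold change of 0.10. Of other matricellular proteins, 4 of 16 passed, all higher. Both counts include *Tnxb*, which entered the test through its E12.5 level, since its mean at E11.5 was 0.414 RPKM. The SPARC relative *Smoc1* rose from 8.33 ± 1.30 to 24.8 ± 0.241 CPM (SD, n = 3; log2 fold change 1.57, SE 0.14, adjusted p = 0.00128, edgeR). *Tnxb*, a tenascin of connective tissue, rose from 3.96 ± 1.52 to 14.3 ± 5.51 CPM (1.86, SE 0.34, adjusted p = 0.0179, edgeR), and *Ecm2* from 5.09 ± 1.49 to 10.7 ± 1.56 (1.07, SE 0.23, adjusted p = 0.0257, edgeR). *Tnxb* was lost without E11.5 control 1 (1.89) or E12.5 control 2 (1.58), and *Ecm2* without E11.5 control 1 (0.93), E12.5 control 1 (0.96) or E12.5 control 2 (1.17).

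Receptors of thrombospondins were among the genes that rose in control hearts, where 2 of 16 receptors and partners passed, beside the 5.28% of all genes, and the other 14 did not. *Cd36*, a thrombospondin and fatty acid receptor, went from 56.5, 69.2 and 67.9 CPM to 122, 107 and 115 (log2 fold change 0.83, SE 0.11, adjusted p = 0.00501, edgeR). *Cacna2d1*, a calcium channel subunit that binds thrombospondins, went from 57.0, 58.0 and 59.8 CPM to 110, 87.7 and 83.1 (0.69, SE 0.12, adjusted p = 0.0134, edgeR). Neither had overlapping groups. Of the ligands and processing genes 1 of 18 passed, a share near the 5.28% of all genes. It was the cartilage collagen *Col9a1*, which fell from 81.1 ± 18.1 to 44.3 ± 1.72 CPM (-0.87, SE 0.15, adjusted p = 0.0133, edgeR). *Cacna2d1* was lost without E12.5 control 1 (0.55), and *Col9a1* without E12.5 control 1 (-0.85) or control 2 (-0.90) and in 1 fit over all 12 libraries (adjusted p = 0.0955, edgeR). With sex as a covariate, only *Smoc1* of these 6 stayed past the threshold.

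In mutant hearts 2 of 50 genes of this list passed between stages, beside 0.556% of all genes, with a median log2 fold change of 0.26. *Smoc2*, another SPARC relative, went from 10.5, 7.86 and 5.02 CPM to 32.1, 32.6 and 40.5 (2.15, SE 0.24, adjusted p = 0.0107, edgeR). *Col1a1*, a chain of type I collagen, rose from 324 ± 108 to 866 ± 168 CPM (1.41, SE 0.24, adjusted p = 0.0461, edgeR). Neither stayed past the threshold when any 1 of the 3 E12.5 mutants was left out, at 2.04 to 2.21 for *Smoc2* and 1.24 to 1.5 for *Col1a1*, and *Col1a1* was also lost without E11.5 mutant 2 (1.32) and with sex as a covariate.

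Between mutant and control hearts the genes are described by stage, because these contrasts were known when the genes were chosen. Over all genes, 14 of 12197 (0.115%) passed the thresholds at E11.5. The mutant libraries lay wholly outside the control range for 6 of the 10 genes, 5 lower and 1 higher, beside 16.3% of all genes. The median log2 fold change of the 10 was -0.73, and 0.00014 over all genes. *Matn4* and *Comp* were above the limit of level through the controls and *Matn3* through the mutants, so that the filter favoured a difference in these 3, and nothing is read from the count or the median.

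*Matn4* was the furthest apart, with 6.0, 7.95 and 1.47 CPM in controls and 1.30, 0.423 and 1.21 in mutants at E11.5 (log2 fold change -2.42, SE 0.63, 5.34-fold lower). The lowest control was just above the highest mutant, and the mutant values rest on 7 to 20 reads. *Tnc* was at 340, 87.8 and 103 CPM in controls and 84.3, 29.0 and 76.6 in mutants (-1.49, SE 0.55), and at -0.59 without E11.5 control 1. *Comp* was lower in the 3 mutants (0.778 to 1.69 CPM) than in the 3 controls (1.86 to 3.59, log2 fold change -1.16, SE 0.42). *Thbs2*, at 2.59 to 6.55 CPM in mutants, lay under the 7.57 to 9.24 of controls (-0.93, SE 0.32), and *Matn2*, at 4.76 to 8.95, under 10.7 to 14.4 (-0.91, SE 0.26).

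*Matn3* was the gene that stood higher in E11.5 mutants, with 1.73 to 3.31 CPM against 1.19 to 1.70 (0.84, SE 0.35). It was above the limit of level through those mutants alone, at means of 0.851 RPKM in mutants and 0.475 in controls. *Postn* was at 544, 456 and 628 CPM in controls and 403, 217 and 502 in mutants, which overlapped (-0.54, SE 0.28). *Thbs1*, *Thbs3* and *Thbs4* overlapped too, at log2 fold changes of -0.07, -0.11 and 0.18. Because all 3 controls and 1 of 3 mutants held RNA of male embryos at this stage, sex moves with genotype here. With sex as a covariate the values were -0.10 for *Postn*, 0.28 for *Matn3*, -1.66 for *Thbs2* and -2.07 for *Matn4*, and that of *Thbs4* changed sign to -0.14.

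At E12.5, 362 of 12257 genes (2.95%) passed in all. Of the 10 genes 9 were above the limit of level, and 3 of these did not overlap, beside 26.3% of all genes. The median log2 fold change of the 9 was -0.39, and -0.0018 over all genes. Nothing is read from this count or median, since the genes were chosen with this contrast known. *Postn* was at 566, 624 and 454 CPM in controls and 353, 418 and 306 in mutants, with every mutant below every control (log2 fold change -0.61, SE 0.13, 1.53-fold lower). With any 1 library left out it lay between -0.51 and -0.73. *Matn4* was at 4.60, 7.51 and 5.43 CPM in controls and 1.96, 1.76 and 0.991 in mutants (-1.89, SE 0.30, 3.72-fold lower). With any 1 library left out it lay between -2.07 and -1.66.

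*Thbs1* was also lower in every E12.5 mutant, by a smaller step, at 144, 133 and 132 CPM against 174, 170 and 148 (-0.27, SE 0.08). *Comp* overlapped by 1 library, with 2.77, 2.06 and 1.72 CPM against 4.34, 5.38 and 2.59 (-0.92, SE 0.31), and was at -1.16 without that library, E12.5 control 3. *Matn2* (-0.47, SE 0.24), *Thbs4* (-0.39, SE 0.24), *Thbs3* (-0.25, SE 0.18) and *Tnc* (-0.20, SE 0.25) overlapped. *Thbs2* overlapped as well and had the higher mean in mutants, 38.8 ± 12.7 against 30.6 ± 5.52 CPM (0.34, SE 0.21). *Matn3* was below the limit of level, at 0.792 to 1.28 CPM in mutants and 1.18 to 1.79 in controls.

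Some marker lists of other cell types moved with genotype beside these values. At E12.5 the summed cartilage list was 188 to 258 CPM in mutants and 311 to 373 in controls, led by *Col2a1*, while *Acan*, which defines cartilage, was at 0.370 to 1.72 CPM, *Matn1* at 0 to 4 reads, and *Snorc*, under its older symbol, at 0 in all 12 libraries. Erythroid markers summed to 2080 to 2630 CPM in E12.5 mutants and 3790 to 6170 in controls, and macrophage markers to 40.9 to 57.8 and 79.4 to 104. Epicardium markers were higher in mutants, at 618 to 678 CPM against 409 to 602, mainly through the keratins *Krt19* (means of 126 and 60.2) and *Krt8* (48.8 and 17.5) and through *Msln* (46.5 and 22.7), while the epicardial factors *Wt1* (42.4 and 44) and *Tcf21* (35.3 and 35.1) had overlapping ranges. The smooth muscle list was also higher, at 2230 to 2630 against 1600 to 2150 CPM, through *Acta2* and *Cnn1* (380 and 285), which embryonic heart muscle also makes, while *Smtn* was lower (107 and 125) and *Myh11*, which defines the cell type, was at 2.23 and 2.19. Cushion mesenchyme markers overlapped, at 1110 to 1230 and 1140 to 1650 CPM. Most of that sum was *Vcan* (means of 668 and 812) and *Tbx20* (392 and 440), which overlapped. *Msx1* of that list was lower in every mutant (4.95 to 6.94 against 7.09 to 7.96), while *Sox9*, *Twist1*, *Snai2*, *Prrx1* and *Meox1* overlapped. The endocardium and endothelium, skeletal muscle, tendon, liver and neural crest lists overlapped too. Within the tendon list *Fmod* was lower in every mutant (12.4 to 15.7 against 23.2 to 30.1 CPM), while *Egr1* had the higher mean (28.5 and 17.3). At E11.5 the tendon and fibrous tissue list was 27.5 to 35.1 CPM in mutants and 55.5 to 64.4 in controls. That difference lay mostly in *Fmod* (means of 13.3 and 39.3). The macrophage list was 13.7 to 16.8 CPM and 29.0 to 76.2, while the epicardium list was 561 to 621 and 646 to 922. Within the latter *Wt1* (means of 41.9 and 69.9) and *Aldh1a2* (54.3 and 114) were lower in every mutant, as were *Tbx18*, *Tcf21* and *Upk3b*. The keratins *Krt19* (146 and 92.2) and *Krt8* (67 and 54.3) were higher in every mutant, and *Msln* overlapped. The part of these cells in the levels of *Postn*, *Matn4*, *Comp* and the other genes was not tested.

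**Figure D4:**
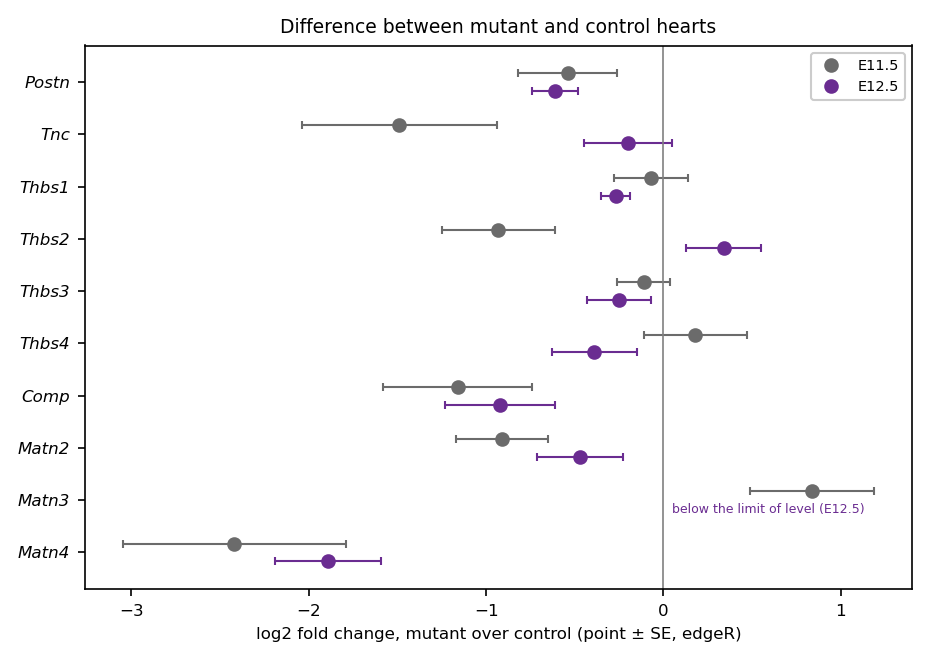
Log2 fold change of mutant over control hearts with its SE (horizontal axis, edgeR) for each gene at E11.5 and at E12.5, given as a description. *Matn4* was lowest at both stages (-2.42 and -1.89), *Postn* was at -0.54 and -0.61, and *Thbs2* was at -0.93 and 0.34.

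The mutant effects at the 2 stages were also set against each other, as the later effect minus the earlier one in a fit of the 12 libraries. No gene passed in this comparison, 0 of 12270 (0%) by edgeR, with 551 at an unadjusted p under 0.05 and 43 past the threshold by DESeq2. The largest differences among the 10 genes were -1.39 (SE 0.47) for *Matn3*, 1.29 (SE 0.70) for *Tnc* and 1.26 (SE 0.41) for *Thbs2*. That of *Tnc* was 0.39 without E11.5 control 1. For *Postn* the difference was -0.07 (SE 0.34) and for *Matn4* 0.53 (SE 0.76).

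In the list of related genes, 1 of 49 genes tested passed between genotypes at E11.5 and 1 of 51 at E12.5, beside 0.115% and 2.95% of all genes. It was the integrin subunit *Itga8*, whose integrin binds tenascin C, and it was lower in mutants at both stages. The list was set with these contrasts known, so nothing is read from the counts. It was at 39.8, 39 and 34.2 CPM in controls and 15.2, 16.9 and 12.8 in mutants at E11.5 (-1.33, SE 0.15), and at 56.3, 51.1 and 42.6 against 31.2, 28.3 and 23.6 at E12.5 (-0.85, SE 0.13). At E11.5 it was past the thresholds in 1 of the 6 fits with a library left out, at -1.43 to -1.24. The median log2 fold change of the list was -0.15 at E11.5 and -0.09 at E12.5.

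The genes whose levels followed each of the 10 most closely over the 12 libraries were named by Pearson r of log2(CPM + 1), as a description, since the libraries share stage and genotype. For *Thbs2* these were *Col6a6* (r = 0.96), *Lnx2* (0.96) and *Megf6* (0.94), and for *Postn* they were *Degs2* (0.91), *Fgf9* (0.91) and *Mfap5* (0.87). *Matn4* was followed by *Akt2* (0.93), *Notum* (0.93) and *Robo1* (0.92), and *Tnc* by *Gpc6* (0.91), *Tmem119* (0.90) and *Hs3st3a1* (0.89). *Comp* was nearest to *2510009E07Rik* (0.95), *Cygb* (0.94) and *Pde2a* (0.94), and *Matn2* to *Dcn* (0.90), *Il1r1* (0.88) and *Ifngr1* (0.86). *Matn3* was nearest to *Fam210b* (0.94), *Add2* (0.94) and *Tal1* (0.93), of which *Tal1* encodes a transcription factor of blood cells. *Thbs1* was nearest to *Arhgef40*, *Prima1* and *Trim26* (0.92, 0.90 and 0.90), and genes near to *Thbs3* included *Cbx5* and *Vcan* (0.87 and 0.85), and those near to *Thbs4* included *Mest* and *Atp6v0e2* (0.91 and 0.86). No gene of the 10 was among the nearest 3 of another.

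The genes lie apart in the genome (GRCm38). *Postn* covers positions 54361109 to 54391034 of chromosome 3 with 23 exons, *Tnc* 63959785 to 64047015 of chromosome 4 with 26, *Thbs2* 14665500 to 14694262 of chromosome 17 with 22, and *Matn4* 164389393 to 164405160 of chromosome 2 with 11. In the annotation 5 of the 10 overlap another gene on the opposite strand, and the sources used here do not say that counting used the strand. *Matn4* shares 149 exonic bases with *Rbpjl*, which was at no more than 0.247 CPM in any library, and *Thbs3* shares 318 with *Mtx1*, at 42.7 to 56.8 CPM. *Matn2* shares 70 with *9430069I07Rik*, which had no reads, *Thbs1* shares 208 with *Gm29233*, and *Tnc* shares 176 with *8030451A03Rik*.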

How the data were processed

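Heart RNA was extracted in triplicate from each genotype and stage. Per the study's methods, paired-end reads were aligned with BOWTIE and normalised with DEseq (the submitters' notes name Bowtie2 and mm10, the paper an Illumina NextSeq and the series text a GAIIx); the counting program and annotation are not given in the sources used here. The authors deposited a table of values named RPKM, treated here as a score because each was a whole count multiplied, not divided, by gene length and by a library factor. They also deposited 1 comparison per stage with the average expected count of each group, and with fold changes and p-values that were not used. Counts were recovered by finding the library factors that return those averages; the 17827 genes with a count lay within 4.95e-10 of whole numbers. X and Y genes were outside the comparisons and the tests. Replicate pairs differed by 6.71 to 49.6 times sampling noise (chi-square per degree of freedom), so none was a duplicate.

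Counts were tested with edgeR 4.0.16 (quasi-likelihood, TMM) in R 4.3.3 on genes with a mean of at least 0.5 RPKM over the libraries of a fit, after the script was tested on simulated data. Alternatives were no filter, median-ratio scaling, DESeq2 1.42.0, a joint fit of the 12 libraries, a block for the replicate number, sex as a covariate (a library called male at 100 or more counts of 4 Y-linked genes), and each library left out. CPM used TMM-scaled library sizes. Total counts were 11994148 to 17483982 per library. The 10 genes and the marker and related lists were chosen with earlier results of these data known. All 10 genes were named in every comparison, and of the related list the 5 largest changes past the thresholds without overlap in each direction. *Tnmd*, *Adgre1*, *Hbb-bs* and *Alas2* of the marker lists were not found by symbol. Some of the genes nearest to *Thbs3* and *Thbs4* are not reported here.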

Additional observations from a re-analysis of the deposited data

How the results depend on the processing

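Of the 10 genes, *Thbs2* in control hearts passed in all 12 alternatives. The other calls on them depended on libraries or settings as given beside them, and the cause was not tested. With 3 libraries a group, counts of genes past the thresholds moved more than the fold changes did. At E11.5 the mutant effect counted 73 genes with no filter, 248 with DESeq2, 221 in 1 fit over all 12 libraries, 29 with sex as a covariate, and 0 to 15 with a library left out. Among the related genes it counted 2 with no filter, 6 with DESeq2, 5 over all 12 libraries and 0 to 1 with a library left out. At E12.5 the mutant effect counted 132 genes over all 12 libraries and 151 to 368 with a library left out. Of the related genes 2 passed with no filter and 1 to 3 with a library left out. For the stage change in controls the counts were 336 over all 12 libraries, 19 with sex as a covariate and 44 to 1407 with a library left out. Of the 10 genes 1 passed over all 12 libraries, 1 with sex, and 1 to 2 with a library left out, and of the related genes 1 with sex and 3 to 8 with a library left out. For the stage change in mutants the counts were 119 with no filter, 227 with DESeq2, 119 over all 12 libraries and 1 to 123 with a library left out, with 0 to 1 of the 10 genes. Of the related genes 8 passed with DESeq2, 6 over all 12 libraries, 1 with sex and 0 to 5 with a library left out. The difference between stages counted 43 genes with DESeq2 and 0 to 10 with a library left out.

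With the replicate block, the counts were 73 genes and 4 related genes at E11.5, 2 related genes at E12.5 and 36 genes for the stage change in mutants, and the small changes of *Matn2* in controls (-0.03) and *Thbs1* in mutants (0.03) turned sign. The block changed no call on the change of the 10 genes with stage. Same-numbered libraries correlated at -0.149 to 0.443 in their deviations from group means. Between control and mutant hearts of E11.5 the values were -0.0501, 0.443 and 0.31 for replicates 1, 2 and 3. At E12.5 they were 0.0209, 0.0538 and 0.00368. Libraries of unlike number were not compared, so these values do not tell whether the numbers pair the samples.

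With sex as a covariate, which in controls sets 3 male libraries against 1 male and 2 female ones, changes in controls that were not past the threshold moved to 0.00 for *Comp*, 0.05 for *Thbs1*, 0.07 for *Matn4*, 0.57 for *Matn2*, -0.47 for *Thbs3* and -0.49 for *Thbs4*. Changes near 0 that were not past the threshold turned sign in other settings. In controls these were *Postn* with sex as a covariate (-0.26) and with a library left out (-0.11 to 0.13), and, with a library left out, *Matn2* (-0.36 to 0.18), *Matn4* (-0.25 to 0.63), *Thbs3* (-0.26 to 0.13) and *Thbs4* (-0.31 to 0.17). In mutants they were *Thbs1* with no filter (0.00) and with a library left out (-0.20 to 0.21), and *Postn* (-0.35 to 0.21). *Matn3*, *Matn4* and *Comp* rest on 7 to 134 reads a library, which limits their folds.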
